A study of Mus musculus with 5 samples.

Results

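Chaperones and heat shock genes were followed over 5 stages of thymocyte development. The set held every gene of the array whose symbol begins with Hsp followed by a, b, d, e, h or a digit, or with Dnaj, together with the Cct genes that carry a digit, Tcp1 and Stip1. It came to 57 of 8251 genes, read by 80 probe sets, and each gene was represented by its probe set of highest mean signal. Of the 57 genes, 50 had a signal above 130.4 on at least 1 array and 40 on all 5. That signal was the median of all gene values and served as the floor under which levels were not compared. Hsp90ab1, the constitutive cytosolic HSP90, was not analysed here.

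Populations were sorted from thymuses of 10 male C57BL6 mice at 5 weeks of age, and the labels give no allele or agent that set any of them apart. They do not say if RNA of several mice was combined. DN1 to preDP came from thymocytes enriched for blasts and were lineage negative and CD24+. DN1 was CD44hi and CD25-, DN2 CD44hi and CD25+, DN3 CD44lo and CD25+, and the pre-double positive cells (preDP) CD44lo and CD25-. Double positive cells (DP) carried CD4 and CD8 and were sorted from total thymocytes, so stage and starting material cannot be told apart for DP. Every population had 1 Affymetrix array, without replicates, and so no test, p-value or standard error could be given. Genes counted as higher or lower were at least 2-fold apart between 2 arrays after values under the floor were raised to it, and smaller differences are given with their size. A fold against an array at the floor is a lower bound and is written as at least that size. Signals are on the deposited linear scale and are compared between arrays for 1 gene, not between genes.

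Molecular chaperones bind proteins that are unfolded or still being made and help them reach or keep their folded form. HSP70 proteins take up short exposed stretches in a cycle that J-domain proteins (the Dnaj genes) start and nucleotide exchange factors end. HSP90 acts later on kinases and receptors that are nearly folded, and the adaptor Stip1 links both. TRiC, the ring-shaped chaperonin of the cytosol built from Tcp1 and Cct subunits, folds actin and tubulin, and Hspd1 with its lid Hspe1 does so for proteins of the mitochondrial matrix. In the endoplasmic reticulum (ER) the same work falls to Hspa5 (BiP) and Hsp90b1 (GRP94). Cells that divide and grow make much new protein, and thymocytes at the DN to DP transition pass through such a phase.

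Promoter windows from RefSeq (GRCm38.p6, 250 bases before to 50 after the start) matched 49 of the 57 genes. They were searched on both strands for elements that heat shock factor and the ER stress response are known to bind. The heat shock element of 3 units (GAA, TTC and GAA in turn, each 2 bases from the next) was present in the windows of 4 of the 49 genes, or 8.16%, namely Hspd1, Hspe1, Dnajb6 and Hsph1. Over all 27025 genes with a window the share was 0.662%. The ER stress element (CCAAT and CCACG with 9 bases between them) was found for 3 of the 49, or 6.12%, which were Hspa5, Hsp90b1 and Dnajc3, against 0.137% of all genes. Its pairs of neighbouring units, GAA then TTC and TTC then GAA, which the 3-unit element contains, were in 20.4% and 16.3% of the 49 genes and in 9.04% and 9.60% of all. CCAAT alone, part of the ER stress element, was in 53.1% and 41.1%, and CACGTG in 10.2% and 8.09%. Windows of Cct4, Dnajc2, Dnajc5, Dnajc11, Hsp90aa1, Hspa8, Hspa9 and Hspb2 were not matched. A match describes the letters of the window and is no evidence of binding. The stretches below are shown because their genes were at least 2-fold apart across the 5 populations and fall into unlike profiles. The match stands in capitals within each, 5′ to 3′ along the gene's strand, with the distance counted from the first capital to the start site.
Hspe1: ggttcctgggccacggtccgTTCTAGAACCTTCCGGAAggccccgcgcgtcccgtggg
Hspa5: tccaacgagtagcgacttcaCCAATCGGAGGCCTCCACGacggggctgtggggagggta
Hsp90b1, nearer element: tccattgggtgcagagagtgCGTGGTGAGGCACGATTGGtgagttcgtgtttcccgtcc
Hsp90b1, farther element: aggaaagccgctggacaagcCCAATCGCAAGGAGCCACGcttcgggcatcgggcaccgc
Dnajc3: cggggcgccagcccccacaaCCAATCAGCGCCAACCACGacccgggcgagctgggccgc

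The Hspe1 stretch lies at chr1:55088039-55088096 on the plus strand, 89 bases before the start, and holds 2 overlapping matches in 18 bases. Hspd1 begins on the opposite strand of the same region, so these 58 bases are also its promoter, read the other way, and its first capital is 144 bases before its start. The Hspa5 stretch is at chr2:34772005-34772063 (plus strand, 65 bases before the start) and that of Dnajc3 at chr14:118937807-118937865 (plus strand, 105 bases before it). Hsp90b1 has its stretches at chr10:86705513-86705571 and chr10:86705618-86705676 on the minus strand, 107 and 212 bases before the start, and the nearer one runs in reverse orientation. In Hsph1 the match lay after the start.

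Lists of other genes described what the sorted cells held. The DN1 array carried signal of other cell types, with a summed signal over the 16 myeloid markers of 125857 against 925 to 3644 on the other arrays, and 14 of 16 above the floor. The sum of 9 dendritic markers was 138542 in DN1 and 967 to 3537 elsewhere, and that of 8 B-lineage markers 59214 and 4151 to 10013. The sum of 5 T-lineage markers was 3009 in DN1 and 18259 to 53832 on the others. Erythroid, natural killer and stromal lists summed to between 80.3 and 1081 on every array. Of the sort markers, Il2ra (CD25) was above the floor in DN2 and DN3 alone, and Cd44 was under it on all 5 arrays and so checks nothing. How far other cells shape the DN1 values of chaperones was not tested, and in RNA of whole populations a smaller share of a cell type and less RNA per cell cannot be told apart.

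Most chaperone genes without a J domain were low in DN1 and DP and high in the stages between them. Of the 40 genes above the floor on all arrays, 23 (57.5%) had both DN1 and DP under all of DN2, DN3 and preDP, compared with 996 of 3999 such genes (24.9%) over the whole array. Among genes without a J domain it was 17 of 22. The summed signal of the 57 genes was 96906 (DN1), 115502 (DN2), 133788 (DN3), 144947 (preDP) and 81517 (DP), which made 1.34%, 1.62%, 1.83%, 2.05% and 1.18% of the signal of all genes. In all, 26 of the 50 measured genes were at least 2-fold apart between their highest and lowest array, a share of 52.0% that is close to the 46.2% of all 5438 genes measured. Without the DN1 array it was 21 of 48 (43.8%, all genes 34.7%). The 26 peaked in DN1 in 4 cases, in DN2 in 3, in DN3 in 6, in preDP in 8 and in DP in 5. Over all genes so far apart, 32.8% peaked in DP and 25.2% in DN1.

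**Figure D1:**
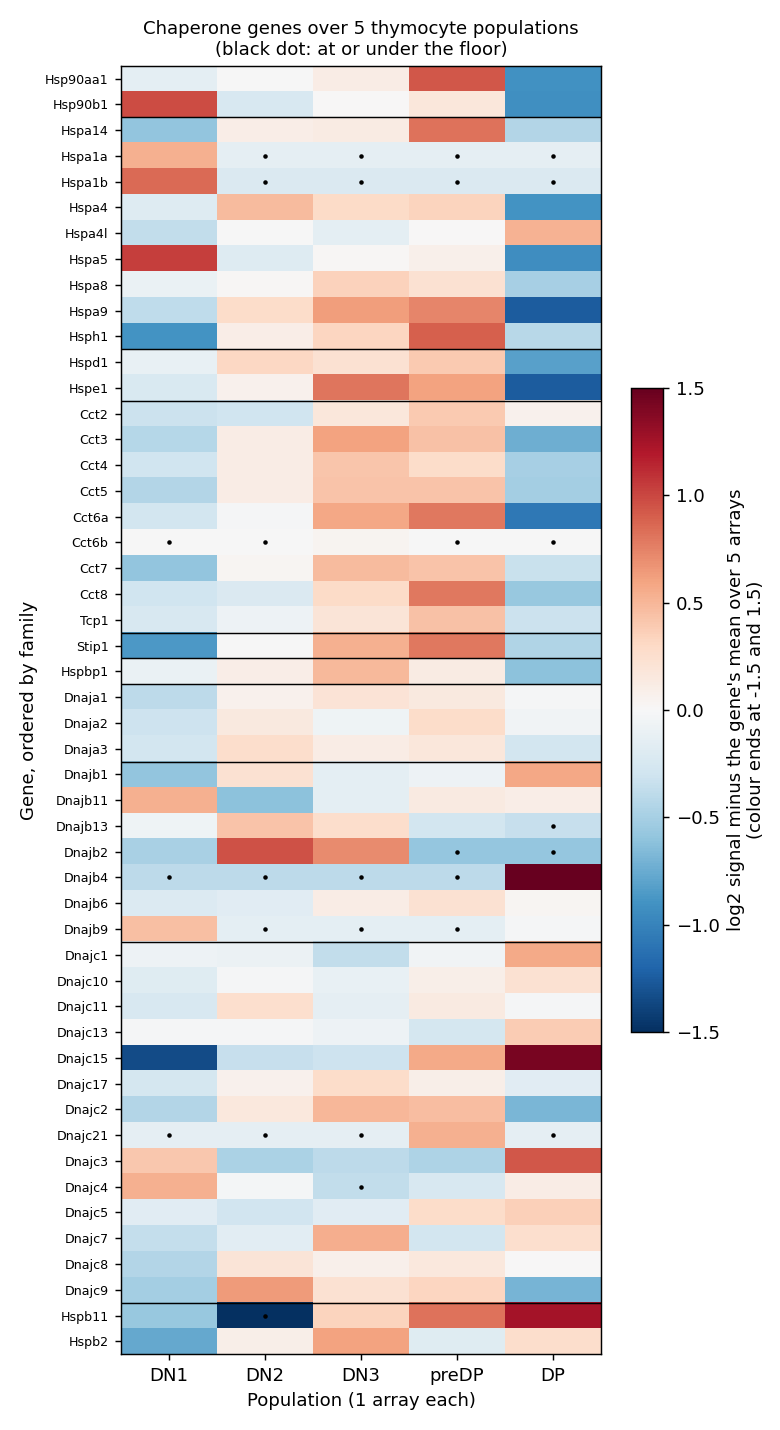
Rows are the 50 chaperone genes above the floor on at least 1 array, ordered by family, and columns are the 5 populations with 1 array each. Colour gives the log2 signal minus the gene's mean over the arrays, and a dot marks a value at or under the floor. Cct3 to Cct5, Cct6a, Cct7, Cct8, Hspd1, Hspe1, Hspa9, Hsph1 and Stip1 are red in DN3 or preDP and blue in DN1 and DP, while Hspa5 and Hsp90b1 are red in DN1.

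The comparison of DP with preDP held the most chaperone genes far apart. Of 46 measured genes 15 were at least 2-fold lower in DP, or 32.6%, beside 11.7% of all genes, and 2 were higher, or 4.35%, beside 11.3%. The lowest ratios belonged to Hspa9, Cct6a, Hspe1, Hsp90aa1 and Cct8, at 3.95-fold, 3.65-fold, 3.61-fold, 3.59-fold and 2.56-fold lower. The other 10 were Hsph1, Hspa14, Hspa4, Stip1, Hspd1, Cct3, Dnajc2, Hsp90b1, Dnajc9 and Hspa5, between 2.02-fold and 2.49-fold. Higher in DP were Dnajc3 at 2.64-fold and Dnajb4 at no less than 3.92-fold, and the next ratios were those of Dnajc15, Dnajb1, Dnajc13 and Dnajc1, from 1.54-fold to 1.80-fold. The median log2 ratio was -0.39 over all measured chaperone genes, -1.09 for those without a J domain, -0.03 for those with one and 0.01 for all genes. The spread between the brightest and second probe sets of 565 genes gave an SD of 0.59 in log2 ratio in this comparison. The genes that were at least 2-fold apart under all other settings of scaling, floor and probe set were 7 of the 17, namely Cct8, Hsp90b1, Hspa14, Hspa9, Hspe1, Hsph1 and Stip1. Each of the 7 had only 1 probe set, so the choice of probe set could not change its ratio. With the mean over all probe sets of a gene, 10 genes were lower (21.7%, all genes 9.69%) and 1 higher (2.17%, all genes 9.62%).

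Other genes that mark growth and division also differed between preDP and DP. The sum of 13 S phase genes was 54068 in preDP and 20438 in DP. Of 12 measured, 9 were at least 2-fold lower (75.0%, all genes 11.7%), with a median log2 ratio of -1.37. For 13 genes of G2 and mitosis the sums were 36539 and 12130.4, with 13 of 13 lower (100%) and a median of -1.51. For 11 genes of the Myc and ribosome biogenesis list they were 59474 and 19169, with 11 of 11 lower (100%) and a median of -2.19. The sum of 18 immediate early genes, which respond to stress and cell handling, was 12776 in preDP and 29341 in DP. Of 12 measured, 6 were at least 2-fold higher and 0 lower, with a median log2 ratio of 0.98. Zfp36 (152 and 1166) and Btg2 (2347 and 12533) had the highest ratios, at 7.67-fold and 5.34-fold. The part of these lists in the chaperone differences was not tested.

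Fewer chaperone genes were far apart between the earlier stages, and those comparisons share arrays with their neighbours. In DN2 against DN1, 4 of 47 measured genes were at least 2-fold higher (8.51%, all genes 4.76%) and 5 lower (10.6%, all genes 8.58%). The highest ratios were those of Dnajb2 at 2.71-fold, Dnajc9 at 2.21-fold, Dnajc15 at 2.01-fold, Hsph1 at 2.0-fold and Hspb2 at 1.82-fold higher. Hspa5, Hsp90b1, Dnajb11, Dnajc3 and Dnajc4 had the lowest ratios with both arrays above the floor, between 1.48-fold and 2.36-fold lower, of which Dnajc3 and Dnajc4 were under 2-fold. Hspb11 and Hspa1b were under the floor in DN2 and lower by at least 2.39-fold and 2.09-fold. This count depended on scaling. With arrays scaled to an equal median of all probe sets it was 6 higher (12.8%, all genes 10.4%) and 1 lower (2.13%, all genes 6.90%). With an equal median of genes above the floor on all arrays it was 1 higher (2.13%, all genes 2.78%) and 6 lower (12.8%, all genes 10.0%). The median of all genes was 0.13 as deposited, 0.37 and -0.02 under these scalings, and the median of the chaperone genes 0.32, 0.57 and 0.16.

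Between DN2 and DN3, 1 of 45 measured chaperone genes was at least 2-fold higher in DN3 (2.22%, all genes 2.02%) and 0 were lower (all genes 3.95%). The 1 gene was Hspb11, which was under the floor in DN2. Among genes above the floor on both arrays the highest ratios were 1.42-fold to 1.66-fold, for Hspe1, Dnajc7, Cct6a, Stip1 and Hspb2. The lowest, for Dnajc9, Dnajc11, Dnajb1, Dnajc1 and Dnajb2, were 1.19-fold to 1.33-fold lower. In preDP against DN3, 0 of 46 were at least 2-fold higher (all genes 1.16%) and 1 was lower, which was Dnajb2 (2.17%, all genes 2.43%). With quantile normalisation it was 1 higher (2.13%, all genes 1.19%) and 1 lower (2.13%, all genes 2.36%). Dnajc15, Hsp90aa1, Hspa14, Hsph1 and Cct8 had the highest ratios, from 1.43-fold to 1.84-fold. Dnajc7, Hspb2, Dnajb13, Hspbp1 and Dnajc17 had the lowest, 1.14-fold to 1.76-fold lower.

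From the first to the last stage, 5 of 48 measured genes were at least 2-fold higher in DP than in DN1 (10.4%, all genes 11.9%) and 4 were lower (8.33%, all genes 13.8%). Dnajc15, Hspb11, Dnajb1, Hspb2 and Hspa4l had the highest ratios with both arrays above the floor, from 1.85-fold to 6.80-fold, with Hspa4l alone under 2-fold. Dnajb4 was higher by at least 3.92-fold. The lowest were those of Hspa5, Hsp90b1, Hspe1, Hspa9 and Cct6a, between 1.74-fold and 3.93-fold lower, with Hspa9 and Cct6a under 2-fold, and Hspa1b was at least 2.09-fold lower. Scaled to an equal median it was 8 higher (16.7%, all genes 23.2%) and 2 lower (4.17%, all genes 9.99%), with the median of all genes at 0.44 in place of 0.07.

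Of 62 other genes of protein folding on the array, 3 of 52 measured were at least 2-fold higher in DN2 against DN1 (5.77%, all genes 4.76%) and 5 lower (9.62%, all genes 8.58%). It was 2 higher (3.92%, all genes 2.02%) and 0 lower (all genes 3.95%) of 51 in DN3 against DN2. Of 52 at the step to preDP 1 was higher (1.92%, all genes 1.16%) and 1 lower (1.92%, all genes 2.43%). In DP against preDP 3 of 52 were higher (5.77%, all genes 11.3%) and 9 lower (17.3%, all genes 11.7%). In DP against DN1 6 of 53 were higher (11.3%, all genes 11.9%) and 7 lower (13.2%, all genes 13.8%). These shares were near those of all genes, except that fewer were higher in DP than in preDP and more were lower. They are described beside the chaperones they work with.

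**Figure D2:**
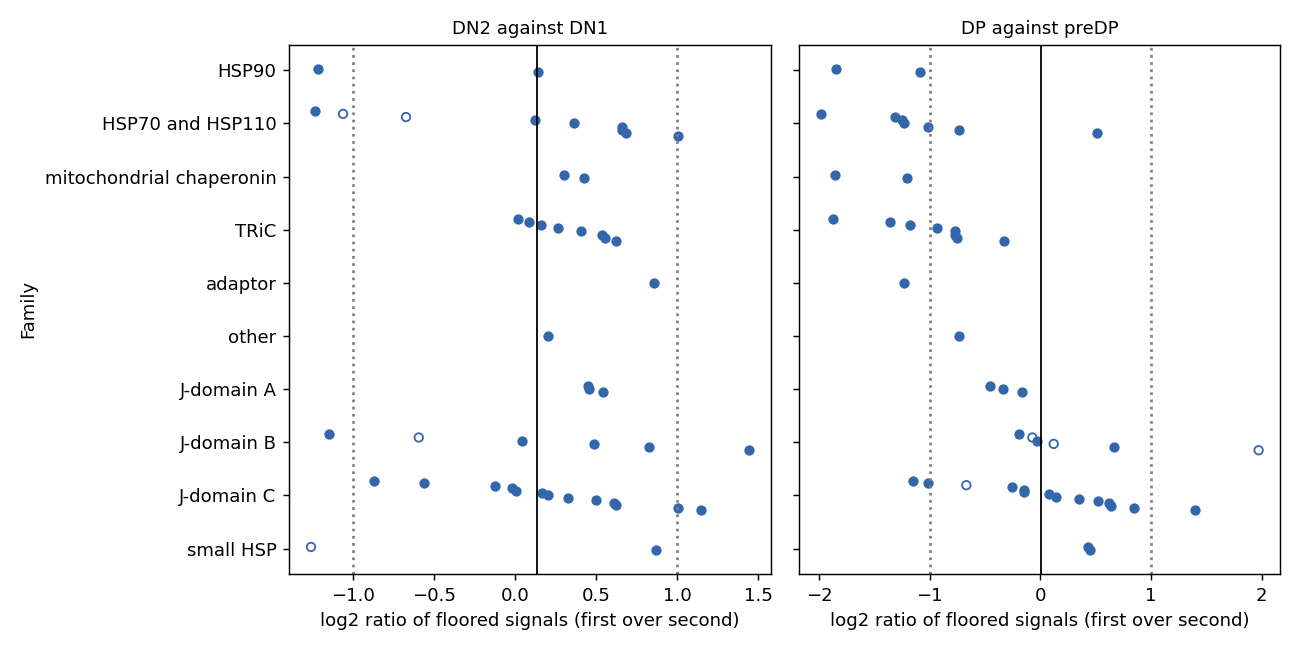
Each point is the log2 ratio of floored signals of 1 chaperone gene in DN2 against DN1 (left) and DP against preDP (right), by family; open points have 1 array at or under the floor and are bounds. Dotted lines mark 2-fold and the solid line the median of all genes (0.13 and 0.01); in DP against preDP all points of HSP90, the mitochondrial chaperonin and TRiC lie below 0, while class B and C J-domain genes lie on both sides.

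The subunits of TRiC had like profiles, and in 7 of 8 both DN1 and DP were under the other populations. Cct3 read 2314 (DN1), 3348 (DN2), 4709.9 (DN3), 4213 (preDP) and 1866 (DP). Cct4 read 4226 (DN1), 5612 (DN2), 6931 (DN3), 6272 (preDP) and 3672 (DP), Cct5 5282, 7765, 9639.7, 9649 and 5038 in the same order, and Cct7 4438, 6829.8, 9291, 9004 and 5289.9. These subunits were lowest in DN1 or DP and highest in DN3 or preDP, and DN1 and DP were 1.05-fold to 1.24-fold apart. Cct6a gave 1134 (DN1), 1362 (DN2), 2058 (DN3), 2382 (preDP) and 652 (DP), and Cct8 gave 1516, 1610.5, 2267, 3231 and 1260.4. Both were highest in preDP, and Cct6a had the widest difference of the complex between preDP and DP. Tcp1, the subunit first described, read 539.7 (DN1), 602 (DN2), 728 (DN3), 859 (preDP) and 509 (DP), and Cct2 read 437, 442, 613, 715 and 569. Cct2 was the only one of the 8 whose DP signal was above its DN2 signal. The log2 ratio was above 0 for 8 of 8 in DN2 against DN1 (median 0.34), and in DN3 against DN2 for all 8 and for Cct6b (median 0.44). In DP against preDP it was below 0 for 8 of 8 with a median of -0.86. At least 2-fold lower were Cct6a, Cct8 and Cct3 (37.5%, all genes 11.7%), while Cct5 missed that size at 1.92-fold. Further probe sets of Cct3 gave log2 ratios of -1.24 and -0.54 beside -1.17, and that of Cct5 gave -1.69 beside -0.94. The probe set used for Cct6a is of a design that can read related transcripts, and its other probe set was under the floor on all 5 arrays, so that the mean over both gave -0.93. Cct6b, a subunit known from testis, was above the floor in DN3 alone, at 135. In DP against DN1 the median was -0.14 as deposited and 0.25 with an equal median.

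Genes that work with TRiC were mostly under 2-fold apart. Of 9 measured prefoldin and cofactor genes, which hand over or take up tubulin and actin chains, 0 were 2-fold apart in the later consecutive comparisons. In DN2 against DN1, 1 of the 9 was at least 2-fold higher (11.1%, all genes 4.76%). It was Pfdn6, at 985, 2293, 2278, 2474 and 1469 from DN1 to DP, or 2.33-fold. Their median log2 ratio in DP against preDP was -0.44. Of 5 actin and tubulin genes, the main clients, Tubb2a was 2.96-fold higher in preDP than in DN3, with signals of 881, 619, 919, 2716 and 4001, and the list's median was -0.07 in DP against preDP.

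**Figure D3:**
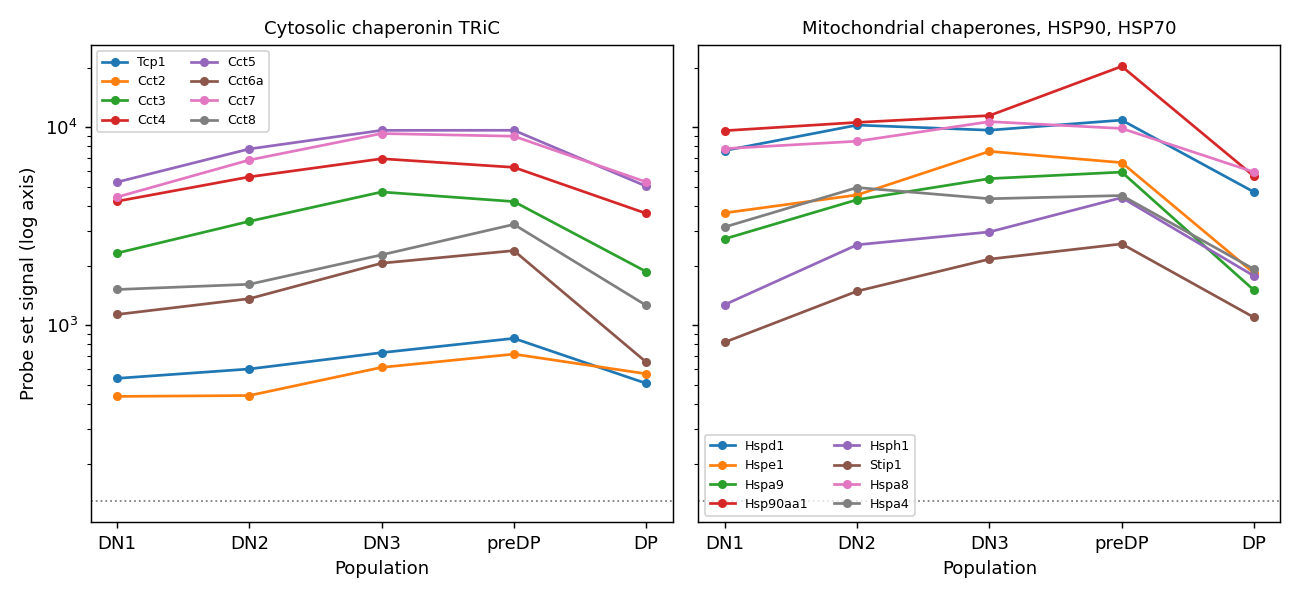
Probe set signal on a log axis in each population (1 array each) for the 8 TRiC subunits (left) and for mitochondrial and cytosolic chaperones (right), with the floor of 130.4 as a dotted line. All 16 genes are lower in DP than in preDP, and Hsp90aa1 stands out in preDP at 20287.

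Chaperones of the mitochondrial matrix had some of the widest differences between preDP and DP. Hspd1, the barrel of the chaperonin, read 7625 (DN1), 10247 (DN2), 9658 (DN3), 10858 (preDP) and 4705 (DP). Hspe1, its lid, read 3693 (DN1), 4551 (DN2), 7554 (DN3), 6624 (preDP) and 1835 (DP). Hspa9 (mortalin), the HSP70 that pulls proteins into the matrix, read 2732 (DN1), 4306 (DN2), 5501 (DN3), 5934 (preDP) and 1502 (DP). All of them were lowest in DP, by 2.31-fold, 3.61-fold and 3.95-fold against preDP, and Hspe1 peaked in DN3. Hspd1 and Hspe1 share the promoter stretch shown above. Across the first 4 populations Hspd1 ranged from 7625 to 10858, and Hspe1 from 3693 to 7554. A second probe set of Hspd1 was above the floor in preDP alone, and the mean over both gave a log2 ratio of -0.72 in DP against preDP.

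Of the J-domain genes of this organelle, Dnaja3 had DN1 and DP both under the other populations, as had Hspd1, Hspe1 and Hspa9, and Dnajc11 and Dnajc15 did not. Dnaja3, a partner of Hspa9, read 687 (DN1), 1000.0 (DN2), 897 (DN3), 937 (preDP) and 684 (DP), and Dnajc11, which associates with the cristae complex MICOS, 416, 586, 447, 538 and 487. Dnajc15, which sits at the inner membrane import motor, had its lowest signal in DN1 and its highest in DP, at 317 (DN1), 636 (DN2), 650.0 (DN3), 1199 (preDP) and 2158 (DP). That was 6.80-fold between DN1 and DP, and its probe set is of a design that can read related transcripts. Of 4 measured proteases and chaperones of mitochondrial quality control, Lonp1 was at least 2-fold lower in DP than in preDP (2.58-fold, signals 475, 815, 1054, 1104 and 428), and 0 were that far apart in the earlier comparisons.

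HSP90 was represented by a cytosolic and an ER gene with unlike profiles. Hsp90aa1, the heat-inducible cytosolic form, read 9606 (DN1), 10576 (DN2), 11446 (DN3), 20287 (preDP) and 5657 (DP). From DN3 to preDP it was 1.77-fold higher, and from preDP to DP 3.59-fold lower, and a second probe set was under the floor on all arrays. With the mean over both, the log2 ratio of DP to preDP was -0.92. Stip1, the adaptor between HSP70 and HSP90, read 822 (DN1), 1487 (DN2), 2158 (DN3), 2575 (preDP) and 1096 (DP). It was highest in preDP and lowest in DN1, with 2.35-fold between preDP and DP.

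Among 8 HSP90 cochaperones, 2 were at least 2-fold higher in DN2 than DN1 (25.0%, all genes 4.76%). In DP against preDP 3 were lower (37.5%, all genes 11.7%) and 1 higher (12.5%, all genes 11.3%). Ppid (cyclophilin 40) read 872, 1919.6, 1827, 1789 and 529.9 from DN1 to DP, which was 2.20-fold higher in DN2 and 3.38-fold lower in DP. Fkbp5, an immunophilin induced by glucocorticoids, read 1713, 6302, 10785, 7184 and 2511, or 3.68-fold higher and 2.86-fold lower in the same comparisons. Its relative Fkbp4 was 2.28-fold lower in DP, at 3561, 6345, 8705, 7594 and 3332, while Unc45a, a chaperone of myosin, was 2.30-fold higher, at 502, 619, 625, 497 and 1142. The median of the list in DP against preDP was 0.02, with 4 ratios above 0 and 4 below.

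Of the 7 HSP70 and HSP110 genes measured in DP against preDP, 5 were at least 2-fold lower (71.4%, all genes 11.7%), namely the mitochondrial Hspa9, the ER gene Hspa5 and the cytosolic Hsph1, Hspa14 and Hspa4. Hspa8, the constitutive HSP70 (HSC70), read 7794 (DN1), 8496 (DN2), 10666 (DN3), 9855 (preDP) and 5936 (DP), a difference of 1.66-fold from preDP to DP. Hspa4, an HSP110 type exchange factor, read 3137 (DN1), 4958 (DN2), 4354 (DN3), 4519 (preDP) and 1919 (DP). Hsph1, the heat-inducible HSP110, read 1272 (DN1), 2549 (DN2), 2959.5 (DN3), 4410.5 (preDP) and 1773 (DP). The probe set used for Hspa4 was highest in DN2, while its other 4 probe sets were highest in preDP, as was Hsph1. In DP the genes were 2.36-fold and 2.49-fold lower than in preDP. The other 4 probe sets of Hspa4 gave log2 ratios of -1.0, -1.02, -1.14 and -0.27 for that comparison beside -1.24. Hspa14, a ribosome-bound HSP70, read 321 (DN1), 515 (DN2), 524 (DN3), 846 (preDP) and 356 (DP), 2.38-fold lower in DP. Its ribosomal partner Dnajc2 (MPP11) read 1613 (DN1), 2458 (DN2), 3101 (DN3), 3025 (preDP) and 1367 (DP), 2.21-fold lower, with -0.80 in log2 from its second probe set. Hspa4l was the only measured gene of the family with a signal in DP above that in preDP, at 204, 262, 238, 266 and 378 from DN1 to DP.

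The stress-inducible pair Hspa1a and Hspa1b was above the floor in DN1 alone. Hspa1a read 208 (DN1), 50.7 (DN2), 99.5 (DN3), 43.3 (preDP) and 20.2 (DP), and Hspa1b 272 (DN1), 101 (DN2), 56.4 (DN3), 50.6 (preDP) and 7.59 (DP). Hspa1b was at least 2.09-fold lower in DN2, and Hspa1a at least 1.60-fold. The genes are near-identical copies, so which of them the probes read is uncertain. The immediate early list was also higher in DN1 than in DN2, at 18137 against 10833 in summed signal. Of 17 measured, 4 were at least 2-fold lower in DN2 (23.5%, all genes 8.58%) and 0 higher (all genes 4.76%), with a median log2 ratio of -0.70. In DP the sum was 29341 while Hspa1a and Hspa1b were under the floor. Of the 9 heat-inducible genes measured in DP against preDP, 5 were at least 2-fold lower (55.6%, all genes 11.7%) and 0 higher (all genes 11.3%). Their median log2 ratio was -1.21, beside 0.01 for all genes. The 5 were Hspd1, Hspe1, Hsph1, Hsp90aa1 and Stip1, while Dnajb1, which is induced by heat as well, was 1.58-fold higher. Of the heat shock factors on the array, Hsf2 and Hsf4 were under the floor everywhere, and Hsbp1, a negative regulator of heat shock factor, read 584, 650.4, 760.1, 650.1 and 1002.

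Of 9 measured cochaperones of HSP70, 0 were 2-fold apart in the first 3 consecutive comparisons, and 2 were lower in DP than in preDP (22.2%, all genes 11.7%). They were Bag2, an exchange factor, at 577, 891, 1094, 1216 and 305 and 3.98-fold lower, and Clpb, a mitochondrial disaggregase, at 290.1, 342, 250.1, 456 and 198 and 2.30-fold lower. Hspbp1, which also releases nucleotide from HSP70, read 629 (DN1), 725 (DN2), 943 (DN3), 735 (preDP) and 442 (DP). It was highest in DN3 and lowest in DP.

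The main chaperones of the ER were highest in DN1. Hspa5 (BiP) read 5903 (DN1), 2502 (DN2), 2907 (DN3), 3027 (preDP) and 1502 (DP). Hsp90b1 (GRP94) read 8398 (DN1), 3611 (DN2), 4289.6 (DN3), 4809 (preDP) and 2262 (DP). Both were more than 2-fold lower in DN2 than in DN1, at 2.36-fold and 2.33-fold, 1.04-fold to 1.19-fold higher at the steps to DN3 and preDP, and lower again in DP, by 2.02-fold and 2.13-fold. Dnajb11, a J-domain cofactor of BiP, read 1059 (DN1), 478 (DN2), 663 (DN3), 804 (preDP) and 785 (DP). It shared the difference between DN1 and DN2 (2.22-fold) and was 1.02-fold apart between preDP and DP. Dnajc3 (p58IPK), a BiP cofactor that also inhibits the stress kinase Eif2ak3, read 1236 (DN1), 676 (DN2), 713 (DN3), 677 (preDP) and 1786 (DP). It was highest in DP, 2.64-fold above preDP, and its other probe sets above the floor gave 1.03 and 1.08 in log2 beside 1.40. Dnajc3 was higher in DP than in preDP where Hspa5 and Hsp90b1 were lower, and the windows of all 3 hold an ER stress element. Dnajc10, a J-domain protein with disulfide reductase activity, read 712, 798, 747, 861 and 952 from DN1 to DP and Dnajc1 318, 314, 259.6, 323 and 497. Dnajb9 (ERdj4) was above the floor in DN1 and DP, at 197 and 142. Over the 7 ER genes the median log2 ratio was -0.87 in DN2 against DN1, from -1.15 to -0.39 under the alternatives, and 0.12 in DP against preDP. The value of -0.87 is that of Dnajc3, whose probe set is of a design that can read related transcripts. Its other probe sets above the floor gave -0.61 and -0.09 in DN2 against DN1.

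Other ER folding genes had the same direction at the first step. Of 10 measured, 10 had a ratio below 0 in DN2 against DN1 (all genes 41.0%) and 3 were at least 2-fold lower (30.0%, all genes 8.58%). In DP against preDP 3 were at least 2-fold lower (30.0%, all genes 11.7%). Creld2, a stress-induced ER protein, read 1771, 726, 713, 827 and 456 from DN1 to DP and was 2.44-fold lower in DN2. The disulfide isomerase Pdia4 read 998, 411, 359, 534 and 404 (2.43-fold), and P4hb read 931, 917, 749.8, 900.4 and 252, with DP 3.58-fold below preDP. The oxidase Ero1b read 591, 245, 136, 119 and 162, 2.41-fold lower in DN2. Of 6 measured regulators of the ER stress response, 2 were at least 2-fold lower in DN2 than in DN1 (33.3%, all genes 8.58%). These were Herpud1 and Edem1, which serve ER degradation, at 3.41-fold and 2.11-fold, respectively. Herpud1 read 1999, 586, 498, 579.9 and 507. Edem1 read 309.8, 147, 435, 711 and 1149, which was 2.96-fold higher in DN3 than DN2. In that comparison 2 of 5 measured regulators were at least 2-fold higher (40.0%, all genes 2.02%). Xbp1, a transcription factor of the response, read 1628, 1017, 1467, 599.9 and 1670.5, with preDP 2.45-fold below DN3 and DP 2.78-fold above preDP. Eif2ak3 (PERK) read 113, 34.8, 105, 149 and 397, with DP 2.67-fold above preDP. Of 6 measured in DP against preDP, 2 were at least 2-fold higher (33.3%, all genes 11.3%) and 0 lower (all genes 11.7%). Myeloid, dendritic and B-lineage markers were high on the DN1 array, as given above, and their part in the ER values of DN1 was not tested.

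**Figure D4:**
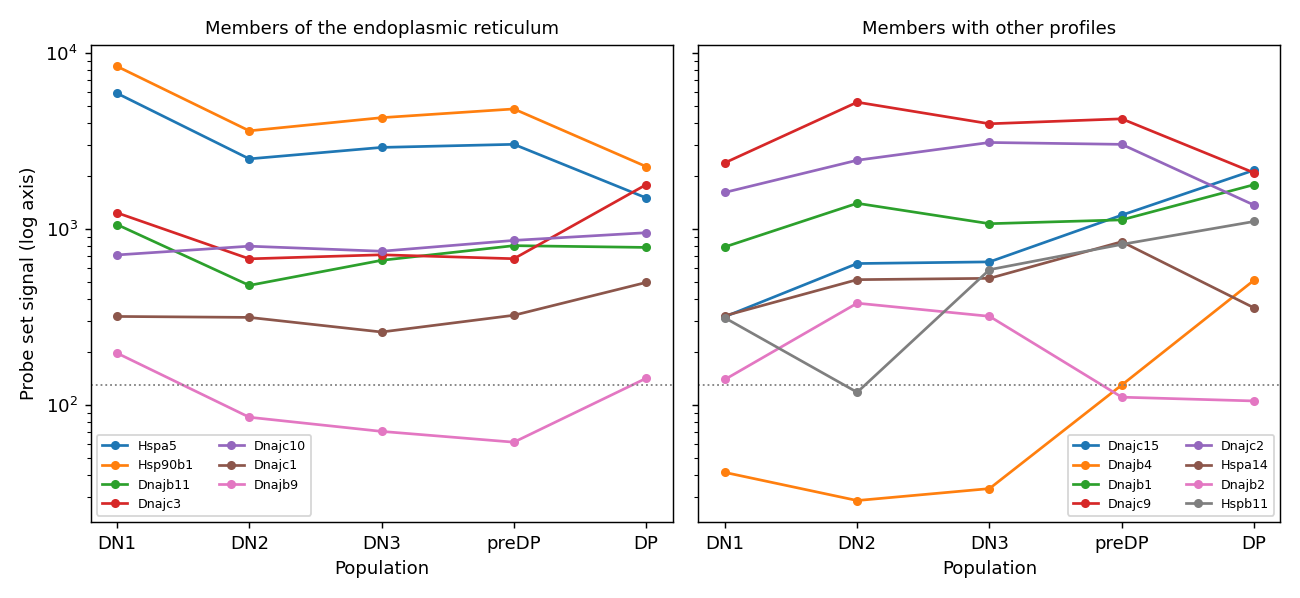
Probe set signal on a log axis in each population (1 array each) for the 7 ER genes (left) and for 8 other chaperone genes with profiles of their own (right), with the floor of 130.4 as a dotted line. Hspa5 and Hsp90b1 are highest in DN1 and lowest in DP, Dnajc3 is highest in DP, and Dnajc15 goes from 317 in DN1 to 2158 in DP.

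J-domain genes showed several profiles. Of 23 measured in DP against preDP, 2 were at least 2-fold higher (8.70%, all genes 11.3%) and 2 lower (8.70%, all genes 11.7%), shares near or under those of all genes. Of the 18 above the floor on all arrays 6 had DN1 and DP both under the other populations (33.3%, all genes 24.9%). In class A, the type closest to bacterial DnaJ, Dnaja1 read 1423 (DN1), 1951 (DN2), 2148 (DN3), 2067 (preDP) and 1842 (DP) and Dnaja2 read 196, 268, 231, 293 and 233. With Dnaja3 they made 0 of 3 at least 2-fold apart in any comparison.

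In class B, Dnajb1 (HSP40), the partner of heat-inducible HSP70, read 791 (DN1), 1399 (DN2), 1071 (DN3), 1126 (preDP) and 1785 (DP). It was highest in DP and lowest in DN1, 2.26-fold apart. Dnajb4, a relative of Dnajb1, read 41.3 (DN1), 28.6 (DN2), 33.5 (DN3), 129.8 (preDP) and 511 (DP). It was above the floor in DP alone, by at least 3.92-fold against preDP. Dnajb2, a protein that guides clients to degradation, read 139.5 (DN1), 379 (DN2), 319 (DN3), 111 (preDP) and 105 (DP). DN2 was 2.71-fold above DN1, and preDP was below DN3 by at least 2.45-fold. These values lie close to the floor, and with the higher floor of the 65th percentile the log2 ratio of Dnajb4 in DP against preDP was 0.59 and that of Dnajb2 in DN2 against DN1 was 0.16. Dnajb6, which hinders aggregation, read 1737, 1787, 2163, 2344 and 2047 from DN1 to DP, and Dnajb13, known from sperm flagella, 159, 223, 199, 137 and 62.9.

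In class C, Dnajc9, a histone chaperone as well as a J-domain protein, read 2377 (DN1), 5253 (DN2), 3961 (DN3), 4226 (preDP) and 2086 (DP). DN2 was 2.21-fold above DN1, and DP was 2.03-fold below preDP. Dnajc7, which binds both HSP70 and HSP90, read 2734 (DN1), 3151 (DN2), 5105 (DN3), 2898 (preDP) and 4167 (DP), with DN3 the highest. Apart from Dnajc9 and from Dnajc2, Dnajc3 and Dnajc15, described above, the genes of the class were under 2-fold apart in all 5 comparisons. Dnajc8, a protein tied to splicing, read 6094, 9384, 8678, 9191 and 8299 from DN1 to DP and Dnajc17 428, 536, 621, 544 and 454. Dnajc13, of endosomes, read 319, 319.9, 306, 269 and 419.6, and Dnajc5, of secretory vesicles, 238, 218, 237, 323 and 342. Dnajc13 and Dnajc5 were highest in DP. Dnajc4 read 242, 164, 116, 142 and 181, and Dnajc21, a ribosome biogenesis factor, was above the floor in preDP alone at 207.

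The genes named as small heat shock proteins included few with a signal. Hspb11, which despite its name is a component of intraflagellar transport, read 312 (DN1), 118 (DN2), 587 (DN3), 817 (preDP) and 1103 (DP). It was under the floor in DN2, lower there than in DN1 by at least 2.39-fold and than in DN3 by at least 4.50-fold. DP was highest, 3.53-fold above DN1. Hspb2, a small heat shock protein of muscle, read 136 (DN1), 248 (DN2), 352 (DN3), 204 (preDP) and 279 (DP), close to the floor in DN1 and 2.05-fold higher in DP. A second probe set of Hspb2 was under the floor on all arrays. Hspb1 and Hspb8 were under it on all 5, as were Hspa2, Hspa1l, Dnajb3, Dnajb5 and Dnajb8, several of which are known from testis, muscle or nerve. These 7 genes read 3.31 to 115, and no difference between populations could be read from them.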

How the data were processed

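Total RNA of 5 sorted thymocyte populations was labelled with biotin as cRNA, per the labels' protocols, and each population was read on 1 Affymetrix array. The authors deposited 1 linear signal intensity for each probe set and array. The submitters' processing notes name Affymetrix Expression Console 1.0 and MAS5 for this step, and detection calls were not used here. The mean signal trimmed by 2% at each end was 500.3 to 500.4 on every array, and such scaling hides differences in total RNA per cell.

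Of 12488 probe sets, 66 were controls and 10833 had 1 gene symbol by the platform annotation, of which 10817 matched the RefSeq gene table by gene identifier. They stood for 8251 genes, and 2073 genes had several probe sets. For each gene the probe set with the highest mean signal was used. For 7 chaperone genes its suffix marks a design that can read related transcripts, and 2 probe sets with several symbols were left out. Among the other genes named, Bag2, Fkbp4, P4hb, Ero1b, Tubb2a, Zfp36 and Cd44 were also read by probe sets of such a design. Values under the floor, the 50th percentile over all arrays and gene probe sets, were raised to it before log2. Genes above the floor on at least 1 array of a comparison were counted as measured.

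No test was run. To describe the spread between probe sets, the log2 ratios of the brightest and second probe set of each gene were subtracted. The SD of the difference over genes is given (0.43 to 0.60 over the comparisons). Both probe sets are read on the same arrays, so this SD holds no variation between mice, sorts or arrays. For the 9 spiked controls the mean log2 ratio was -0.18, 0.23, -0.39 and 0.20 in stage order and -0.14 in DP against DN1. This limits what can be read from ratios near 2-fold. The members and lists were chosen with earlier results of these data known. Always given are chaperone genes at least 2-fold apart in any comparison, and all TRiC, HSP90 and mitochondrial chaperonin genes. The 5 highest and lowest ratios in each comparison are given as well. Further chaperone genes are named beside them without such a rule, and up to 4 genes of each other list. The counting step was run on simulated data in which differences wider than 2-fold were planted only in genes well above the floor. It does not bear on ratios near 2-fold or near the floor. Alternatives were quantile and equal-median scaling, floors at the 35th and 65th percentile, a constant added, other choices of probe set, symbols as given, a narrower set of genes and 1.5-fold. Python 3.11.15, numpy 2.4.6, pandas 2.3.3 and matplotlib 3.10.9 were used.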

Additional observations from a re-analysis of the deposited data

How the results depend on the processing

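No paired analysis was possible because each population had 1 array. The 37 chaperone ratios of at least 2-fold were recomputed under each alternative that applied, which gave 361 values. Their sign reversed in 0 of them, 10 differed by more than the probe set SD, and 12 of the 37 ratios were at least 2-fold under all alternatives that applied (7 of 17 in DP against preDP, 5 of 9 in DP against DN1, 0 of 9 in DN2 against DN1). All 12 were ratios of genes with only 1 probe set, which the choice of probe set could not change. Counts of genes at least 2-fold apart differed by over 1.5 times as follows. DN2 against DN1 (9, or 19.1%, all genes 13.3%) had 5 with the floor at the 65th percentile (14.3%, all genes 11.3%). With a constant added it had 3 (6.38%, all genes 10.1%), a share under that of all genes. DN3 against DN2 (1, or 2.22%, all genes 5.97%) had 0 with the floor at the 65th percentile (all genes 4.21%). It also had 0 without small heat shock and binding proteins (all genes 5.97%). For preDP against DN3 (1, or 2.17%, all genes 3.59%), quantile normalisation gave 2 (4.26%, all genes 3.55%). A 35th percentile floor gave 3 (5.77%, all genes 6.60%), and a 65th percentile floor gave 0 (all genes 2.63%). Adding a constant gave 0 as well (all genes 2.30%). DP against preDP (17, or 37.0%, all genes 23.0%) had 11 with the mean over probe sets (23.9%, all genes 19.3%). Under that setting Hsp90aa1 gave -0.92 and Cct6a -0.93 in log2. At 1.5-fold the counts in stage order were 21 (44.7%, all genes 33.2%), 4 (8.89%, all genes 17.6%), 7 (15.2%, all genes 15.7%) and 28 (60.9%, all genes 45.8%), with 18 in DP against DN1 (37.5%, all genes 46.8%) and 43 between highest and lowest array (86.0%, all genes 77.2%). The median log2 ratio in DN2 against DN1 was 0.57 with equal-median scaling, 0.21 with the mean over probe sets, and 0.16 with an equal median of measured genes, an alternative chosen after seeing the data, as was leaving out the DN1 array. In DP against DN1 the median was 0.36 and -0.17 under these scalings against -0.04, so its sign depends on scaling. In DP against preDP it was -0.73 with the floor at the 65th percentile. The causes were not tested. Signals near the floor limit what can be said of Dnajb2, Dnajb4, Hspa1a, Hspa1b, Hspb2 and Hspb11.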
